A study of Mus musculus with 9 samples.

Results

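The 10 genes studied here belong to cytosolic fatty acid synthesis, elongation and desaturation, and they were followed in mouse splenic B cells. They were chosen by gene symbol, and all 10 had a row among the 17596 genes of the expression table. *Acaca*, *Acacb* and *Fasn* make malonyl-CoA and palmitate, *Elovl1*, *Elovl5* and *Elovl6* are elongases, and *Scd1*, *Scd2*, *Fads1* and *Fads2* are desaturases. RNA was sequenced from primary splenic B cells of *Mb1Cre* mice, the control, and of *Mct1f/fMb1Cre* mice. Both genotypes carry Cre under the B-lineage promoter *Mb1* (*Cd79a*), and in *Mct1f/fMb1Cre* mice it deletes a floxed segment of *Mct1*, listed in the table as *Slc16a1*. *Mct1* encodes a plasma membrane transporter of lactate and pyruvate. Cells were taken untreated on day 0 (2 libraries for each genotype) or after 3 days in culture with IL-4 at 50 ng/ml and LPS at 10 μg/ml (2 *Mb1Cre* and 3 *Mct1f/fMb1Cre* libraries), a stimulus that induces division and class switching. The floxed mice were on the C57BL/6J background. The sources used here do not say whether a library came from 1 mouse or from several, so the p-values measure only the spread between these libraries. Values are FPKM, fragments normalized to transcript length and to the mapped fragments of the library, so levels can be compared between genes.

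Cells make fatty acids from acetyl-CoA, which ATP citrate lyase releases in the cytosol from exported citrate. Acetyl-CoA carboxylase turns it into malonyl-CoA, and fatty acid synthase condenses malonyl-CoA units into palmitate. Elongases of the endoplasmic reticulum lengthen palmitate and dietary fatty acids, stearoyl-CoA desaturases make monounsaturated fatty acids, and the FADS enzymes make polyunsaturated ones. SREBP transcription factors drive most of these genes, and lymphocytes that start to divide need new membrane lipid.

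The targeted gene was checked in every library. *Slc16a1* was at 4.33 and 3.80 FPKM in *Mb1Cre* and at 3.71 and 4.06 in *Mct1f/fMb1Cre* cells on day 0. On day 3 it was at 22.58 and 22.95 FPKM in *Mb1Cre* and at 10.82, 9.81 and 9.50 in *Mct1f/fMb1Cre* cells, a log2 difference of -1.11 (SE 0.0712, limma adjusted p = 9.07e-06). The transcript was therefore lower but still present on day 3, and the genotypes overlapped on day 0 (log2 difference -0.05, adjusted p = 0.844). FPKM over all genes summed to between 477079 and 491459 on day 0 and between 547355 and 563586 on day 3. The 7 B cell markers were all present in every library, and their summed level was 4238 to 4673 FPKM on day 0 and 2200 to 2289 on day 3. The 9 myeloid markers summed to 1127 to 1971 FPKM on day 0, with *Lyz2* at 614 to 809, and to 63.5 to 102 FPKM on day 3. The 9 T and NK cell markers summed to 65.2 to 76.7 FPKM on day 0 and to 8.19 to 10.1 on day 3, and the 8 erythroid and platelet markers to 131 to 240 and to 6.85 to 10.2 FPKM. Marker RNA of other blood cells was thus higher in all 4 day 0 libraries than in all 5 day 3 libraries, and its part in the day 3 against day 0 differences was not tested. In bulk RNA, fewer cells of a type and less RNA per cell cannot be told apart. The 5 plasma cell markers summed to 185 to 282 FPKM on day 0 and 379 to 473 on day 3, but they did not all rise. In every day 3 library 3 of them (*Xbp1*, *Prdm1* and *Irf4*) were above every day 0 library, while *Sdc1* was below and *Jchain* overlapped. *Xbp1* was at 61.47 to 66.21 FPKM on day 0 and 230.32 to 255.87 on day 3. The 5 adipocyte and stromal markers summed to 83.3 to 140 and 14.3 to 20.7 FPKM, mostly from *Pecam1*. In 1 *Mb1Cre* library of day 0 *Col1a1*, a fibroblast collagen, was at 28.83 FPKM against at most 2.67 in the other libraries. *Ddx3y*, a Y-linked gene, was at 31.13 FPKM in 1 *Mct1f/fMb1Cre* library of day 0 and at most 0.24 in the other 3 of day 0. On day 3 it was at 14.69 to 16.91 FPKM. The sex of the mice was thus not balanced between the days, nor between the genotypes on day 0. The part of sex in the day 0 genotype differences and in the interaction was not tested.

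On day 3 most of the pathway stood higher than on day 0. In *Mb1Cre* cells 7 of the 9 tested genes rose (*Acaca*, *Fasn*, *Elovl1*, *Elovl6*, *Scd2*, *Fads1* and *Fads2*), and the same 7 rose in *Mct1f/fMb1Cre* cells. None of the 9 fell in either genotype. *Acacb* was under the limit of a mean of 1 FPKM and was not tested. A gene was called when limma, fitted over all 10823 genes above that limit, gave an adjusted p under 0.05 and a log2 difference above 0.5 in size. Over all genes tested, 24.8% were called higher and 33.0% lower on day 3 in *Mb1Cre* cells, and 23.4% and 33.2% in *Mct1f/fMb1Cre* cells. That split moved with the scaling. The 2687 genes called higher and 3571 called lower in *Mb1Cre* cells became 2078 and 4416 when the libraries were scaled to the same total, 3426 and 2762 by median of ratios and 3083 and 2984 by quantile scaling. In *Mct1f/fMb1Cre* cells 2532 and 3588 became 2010 and 4323, 3333 and 2737, and 3029 and 2867. The median log2 difference of the 9 genes was 1.43 in *Mb1Cre* and 1.56 in *Mct1f/fMb1Cre* cells, against medians over all genes of -0.12 and -0.14. Scaling the libraries to the same total moved the medians over all genes to -0.31 and -0.30, and scaling by median of ratios to 0.06 and 0.06. The 7 calls stood under each of these scalings.

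**Figure D1:**
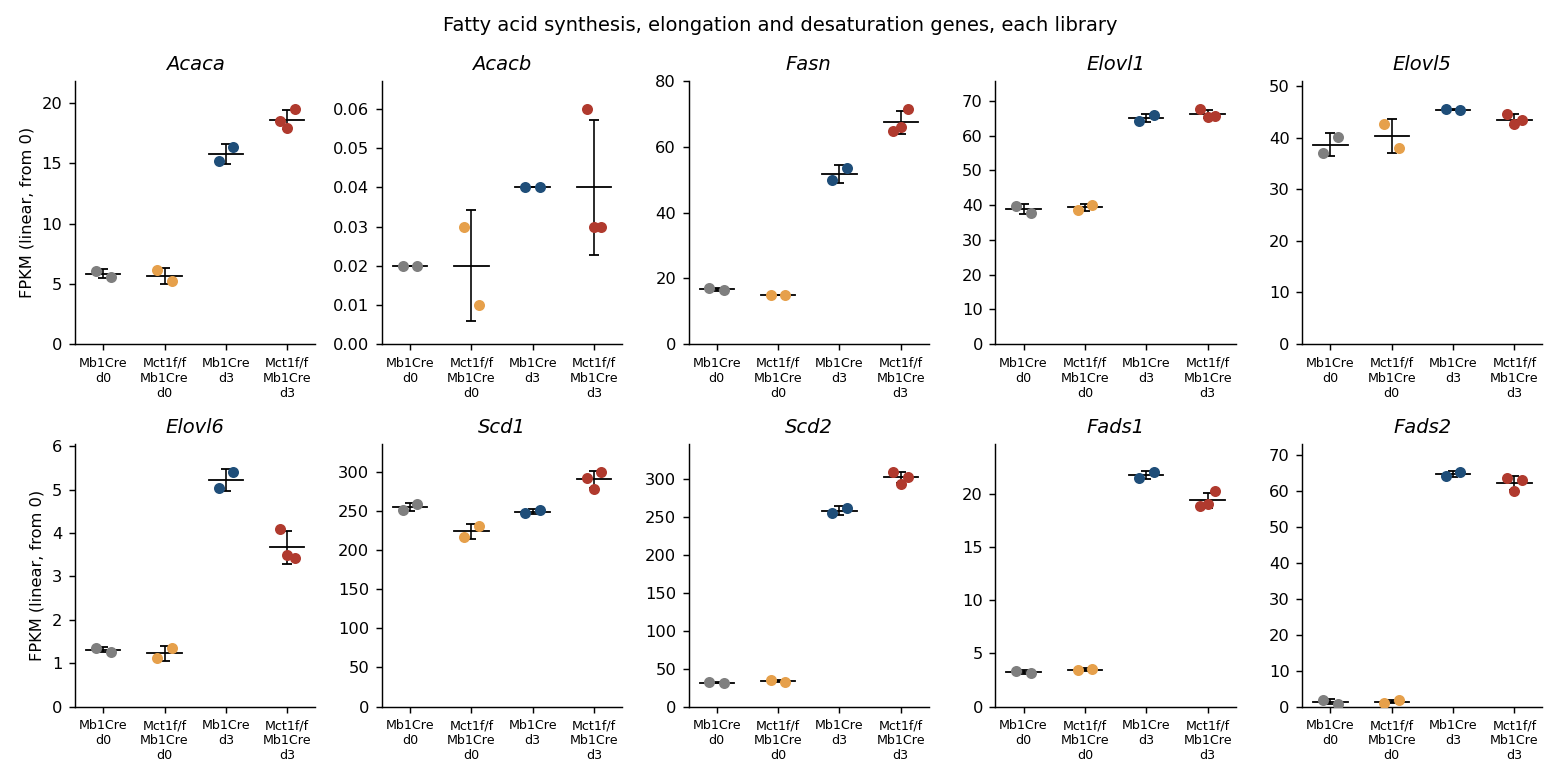
FPKM of the 10 genes in each library (points), with the group mean (line) and SD (bars) on linear axes from 0; n is 2, 2, 2 and 3 libraries. *Fads2* went from at most 1.85 FPKM on day 0 to at least 60.02 on day 3, while *Scd1* was above 217 FPKM in every library.

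The order of the levels changed with activation. In *Mb1Cre* cells of day 0 *Scd1* was highest at 255 FPKM ± 5.19 (SD, n = 2), followed by *Elovl1* (38.8 ± 1.51) and *Elovl5* (38.6 ± 2.21), which overlapped. *Scd2*, *Fasn*, *Acaca* and *Fads1* came next without overlap, at 31.8 ± 0.799, 16.7 ± 0.488, 5.82 ± 0.375 and 3.25 ± 0.184 FPKM. *Fads2* and *Elovl6* overlapped at 1.34 ± 0.728 and 1.31 ± 0.0636 FPKM. On day 3 *Scd2* led at 258.0 ± 5.56 FPKM, just above *Scd1* at 249 ± 2.82, and *Fads2* had moved from the eighth place to the fourth at 64.8 ± 0.884, overlapping *Elovl1* at 65.1 ± 1.07. In *Mct1f/fMb1Cre* cells of day 3 *Scd2* and *Scd1* overlapped, and *Fasn* came next at 67.5 ± 3.50 FPKM, overlapping *Elovl1* at 66.3 ± 1.20. The 10 genes together summed to 390 to 395 FPKM in *Mb1Cre* and 360.1 to 368 in *Mct1f/fMb1Cre* cells on day 0, and to 767 to 787 and 847 to 889 FPKM on day 3. *Scd1* and *Scd2* made up 65.2% to 73.4% of that sum in every library.

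*Fasn*, which encodes the multifunctional enzyme that makes palmitate, was the gene whose response to activation differed between the genotypes past both thresholds. It was at 17.01 and 16.32 FPKM in *Mb1Cre* cells of day 0 and at 49.92 and 53.68 on day 3, a 3.11-fold rise of the means (log2 difference 1.58, SE 0.0574, limma adjusted p = 4.77e-10). In *Mct1f/fMb1Cre* cells it was at 15.00 and 14.84 FPKM on day 0 and at 64.96, 66.14 and 71.52 on day 3, a 4.53-fold rise (log2 difference 2.10, SE 0.0524, adjusted p = 2.55e-11). All 3 *Mct1f/fMb1Cre* libraries of day 3 lay above both *Mb1Cre* libraries, and both of day 0 lay below. The difference between the rises, the genotype by day interaction, was 0.53 on the log2 scale (95% interval 0.35 to 0.70, adjusted p = 0.00355). *Fasn* was the only one of the 9 genes called in the interaction, in which 1.02% of all genes were called higher and 2.22% lower. The call sat close to the limit of 0.5. Leaving out *Mb1Cre* replicate 1 of day 0 (the library with *Col1a1*), *Mb1Cre* replicate 1 of day 3 or *Mct1f/fMb1Cre* replicate 3 of day 3 gave 0.50, 0.47 and 0.48, just under the limit, with adjusted p of 0.00991, 0.0211 and 0.00795.

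*Fasn* lies on chromosome 11 at chr11:120805846-120824547 on the minus strand (GRCm38, GENCODE vM21). Its promoter is shown because it was the gene called in the interaction, beside those of *Elovl1*, which rose by 0.73 and 0.74 on the log2 scale, and *Elovl5*, which was not called in either genotype. Each run is the sequence before the transcript start of RefSeq on GRCm38.p6, 5′ to 3′ on the gene's strand, from chr11:120824548-120824797 (minus), chr4:118427843-118428092 (plus) and chr9:77917115-77917363 (plus). The capitals mark matches to CCAAT (the box bound by NF-Y, a partner of SREBP), CACGTG (the E-box) and GGGCGG (the GC box bound by Sp1) on either strand.
Fasn: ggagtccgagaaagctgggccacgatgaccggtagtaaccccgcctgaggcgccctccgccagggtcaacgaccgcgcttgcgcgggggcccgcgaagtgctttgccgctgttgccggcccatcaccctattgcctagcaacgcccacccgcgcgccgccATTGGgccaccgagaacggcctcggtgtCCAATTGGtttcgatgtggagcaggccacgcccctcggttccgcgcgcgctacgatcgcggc
Elovl1: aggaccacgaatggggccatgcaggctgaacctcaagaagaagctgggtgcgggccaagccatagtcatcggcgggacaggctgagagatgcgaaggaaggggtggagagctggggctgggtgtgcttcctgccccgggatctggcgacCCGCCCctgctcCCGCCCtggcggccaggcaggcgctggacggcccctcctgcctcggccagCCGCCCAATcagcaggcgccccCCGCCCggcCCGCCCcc
Elovl5: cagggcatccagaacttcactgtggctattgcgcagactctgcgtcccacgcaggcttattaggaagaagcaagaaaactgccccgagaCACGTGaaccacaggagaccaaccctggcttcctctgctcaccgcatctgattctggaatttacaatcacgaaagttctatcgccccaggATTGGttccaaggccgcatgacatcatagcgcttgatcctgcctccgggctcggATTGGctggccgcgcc
*Fasn* held CCAAT at 90, 62 and 59 bases upstream, the last 2 overlapping on opposite strands. *Elovl1* held 5 GC boxes and 1 CCAAT box that overlaps one of them, and *Elovl5* held CCAAT at 71 and 17 bases and the E-box at 161 bases upstream. Over the 250 bases upstream in the 32851 promoter windows of the RefSeq table, CCAAT occurred in 33.8%, GGGCGG in 32.7% and CACGTG in 6.02%. The further motifs TCACNCCAC (the sterol regulatory element, in 1.05% of windows) and TCACNTGA (an E-box variant, in 3.45%) had no match in the windows of the 7 genes that the table holds, which were *Acaca*, *Acacb*, *Fasn*, *Elovl1*, *Elovl5*, *Elovl6* and *Fads2*. The RefSeq starts used for *Acaca*, *Acacb* and *Fads2* lie 65766, 18983 and 243 bases downstream of the gene's start in GENCODE. Their windows therefore lie wholly or mostly inside the gene, and the sequence before the GENCODE start was not searched. Of these 7 genes 4 held CCAAT, 2 GGGCGG and 1 CACGTG. Genes that rose and a gene that was not called thus shared the CCAAT letters, and a match here is a description of the sequence only.

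*Acaca*, the acetyl-CoA carboxylase of the cytosol and the source of malonyl-CoA, rose with *Fasn*. It was at 6.08 and 5.55 FPKM in *Mb1Cre* and at 6.14 and 5.20 in *Mct1f/fMb1Cre* cells on day 0. On day 3 it was at 15.17 and 16.34 FPKM in *Mb1Cre* and at 18.48, 17.94 and 19.50 in *Mct1f/fMb1Cre* cells. The rise was 2.71-fold in *Mb1Cre* (log2 difference 1.30, SE 0.0791, adjusted p = 3.46e-08) and 3.29-fold in *Mct1f/fMb1Cre* cells (log2 difference 1.56, SE 0.0722, adjusted p = 3.06e-09). The 3 *Mct1f/fMb1Cre* libraries of day 3 lay above both *Mb1Cre* libraries, but the difference of 0.23 did not pass (95% interval 0.07 to 0.39, adjusted p = 0.0576), nor did the interaction of 0.26 (adjusted p = 0.156). *Acacb*, whose product makes malonyl-CoA at the mitochondrial outer membrane, was at 0.01 to 0.06 FPKM in the 9 libraries. *Fasn* exceeded *Acaca* by 2.44 to 2.94 times on day 0, by 3.29 times in both *Mb1Cre* libraries of day 3 and by 3.52 to 3.69 times in the 3 *Mct1f/fMb1Cre* libraries. Of the 50-base stretches in the coding sequence of *Acaca*, 71.1% also occur in *Gm5182*, a processed pseudogene, so part of its reads could have been assigned to either. Those of *Fasn* and *Acacb* occur in no other gene of the annotation.

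The elongases gave 3 different patterns. *Elovl6*, which lengthens palmitate to stearate, was at 1.36 and 1.27 FPKM in *Mb1Cre* and at 1.11 and 1.35 in *Mct1f/fMb1Cre* cells on day 0. It reached 5.04 and 5.41 FPKM in *Mb1Cre* cells on day 3, a 3.97-fold rise (log2 difference 1.43, SE 0.0971, adjusted p = 8.79e-08), and 4.10, 3.49 and 3.42 in *Mct1f/fMb1Cre* cells, a 2.98-fold rise (log2 difference 1.07, SE 0.0887, adjusted p = 4.73e-07). Its level on day 3 was lower in all 3 *Mct1f/fMb1Cre* libraries than in both *Mb1Cre* libraries, with a ratio of the means of 0.702 and a log2 difference of -0.42 (95% interval -0.61 to -0.22, adjusted p = 0.0102), which passed the adjusted p but not the limit of 0.5. Its interaction, -0.36, had the opposite sign to that of *Fasn* and did not pass (adjusted p = 0.116). The ratio of *Elovl6* to *Fasn* was 0.101 in both *Mb1Cre* libraries of day 3 and 0.0478 to 0.0631 in the *Mct1f/fMb1Cre* libraries, against 0.0740 to 0.0910 in the 4 libraries of day 0. Of the 50-base stretches of its coding sequence 29.9% also occur in *Gm11295*.

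*Elovl1*, which makes saturated and monounsaturated very long chains for sphingolipids, was at 37.75 to 40.00 FPKM in the 4 libraries of day 0 and at 64.37 to 67.65 in the 5 of day 3. It rose 1.68-fold in *Mb1Cre* (log2 difference 0.73, SE 0.0451, adjusted p = 3.80e-08) and 1.69-fold in *Mct1f/fMb1Cre* cells (0.74, SE 0.0412, adjusted p = 1.46e-08). It was the only tested member whose genotypes overlapped on day 3, and its 95% interval for that difference was -0.07 to 0.12. In the annotation 53 exonic bases of *Elovl1* overlap *Cdc20*, a cell cycle gene on the opposite strand, and the sources do not say whether strand was counted. *Elovl5*, which lengthens polyunsaturated fatty acids, was at 37.03 to 42.63 FPKM on day 0 and at 42.53 to 45.49 on day 3. Its log2 difference in *Mb1Cre* cells was 0.23 (adjusted p = 0.004), under the limit. In *Mct1f/fMb1Cre* cells the libraries of the days overlapped, and the log2 difference was 0.11 (adjusted p = 0.0867). It was -0.07 (adjusted p = 0.303) when the libraries were scaled to the same total and 0.32 (adjusted p = 0.000414) by median of ratios, 0.19 (adjusted p = 0.0125) without *Mct1f/fMb1Cre* replicate 1 of day 0 and 0.03 (adjusted p = 0.683) without replicate 2.

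**Figure D2:**
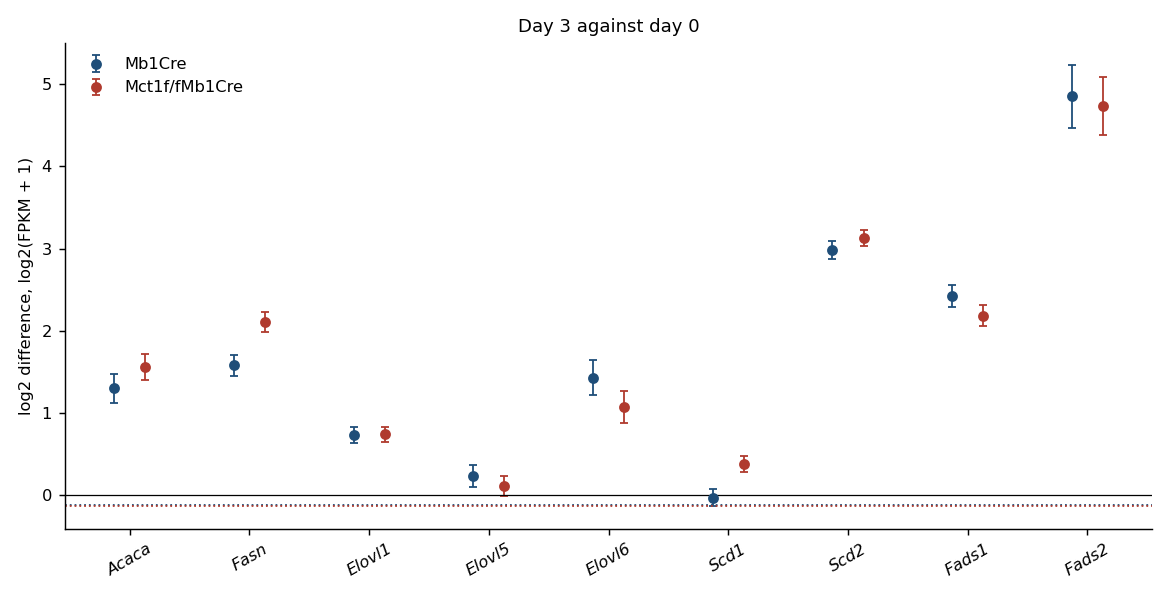
Log2 difference between day 3 and day 0 for the 9 tested genes in each genotype, with 95% intervals; the dotted lines mark the medians over all genes, at -0.12 and -0.14. *Fads2* lies highest at 4.85 and 4.74, and the intervals of the genotypes lie apart for *Fasn* and *Scd1*.

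Among the desaturases, *Fads2* had the largest rise of the 9 tested genes. It encodes the desaturase that starts the conversion of linoleic and alpha-linolenic acid to longer polyunsaturated fatty acids. It was at 1.85 and 0.82 FPKM in *Mb1Cre* and at 1.06 and 1.73 in *Mct1f/fMb1Cre* cells on day 0, and at 64.15 and 65.40 and at 63.63, 60.02 and 63.26 FPKM on day 3. The rise was 48.5-fold (log2 difference 4.85, SE 0.175, adjusted p = 4.38e-10) and 44.7-fold (4.74, SE 0.159, adjusted p = 2.36e-10). The first fold rests on 2 unequal values of day 0, and without *Mb1Cre* replicate 1 of day 0 it was 79.0. The differences are on the log2(FPKM + 1) scale, which understates the change of a gene with so low a value on day 0. *Fads1*, whose product acts after FADS2 in the synthesis of arachidonic acid, was at 3.38 and 3.12 FPKM in *Mb1Cre* and at 3.41 and 3.57 in *Mct1f/fMb1Cre* cells on day 0. On day 3 it was at 21.54 and 22.07 and at 18.90, 19.04 and 20.24 FPKM, which is 6.71-fold (log2 difference 2.42, SE 0.0616, adjusted p = 3.27e-11) and 5.56-fold higher (2.18, SE 0.0562, adjusted p = 3.21e-11). *Fads1* exceeded *Fads2* by 1.83 to 3.81 times in the libraries of day 0 and stood at 0.297 to 0.338 of it on day 3. The genotype difference of *Fads1* on day 3, -0.16 (95% interval -0.29 to -0.04, adjusted p = 0.0794), did not pass, although its libraries did not overlap. That of *Fads2* was -0.06 (95% interval -0.41 to 0.30).

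*Fads3*, *Fads2* and *Fads1* lie next to each other on chromosome 19. *Fads2* spans chr19:10062765-10101746 on the minus strand, and *Fads1* starts 81.1 kb away at chr19:10182888-10196877 on the plus strand. *Fads3*, which lies 2.7 kb from the other end of *Fads2*, was at 0.63 to 1.66 FPKM on day 0 and at 1.08 to 1.37 on day 3. Its log2 differences between the days, 0.05 in *Mb1Cre* (95% interval -0.31 to 0.42, limma adjusted p = 0.772) and 0.25 in *Mct1f/fMb1Cre* cells (95% interval -0.08 to 0.59, adjusted p = 0.135), did not pass, and both intervals end below the rises of *Fads1* and *Fads2*.

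*Scd1* and *Scd2* are close relatives on chromosome 19 whose enzymes turn palmitate and stearate into palmitoleate and oleate, and their values moved differently. *Scd2* was at 32.32 and 31.19 FPKM in *Mb1Cre* and at 35.02 and 32.34 in *Mct1f/fMb1Cre* cells on day 0, and at 254.05 and 261.91 and at 308.76, 293.23 and 302.33 FPKM on day 3. It rose 8.12-fold (log2 difference 2.98, SE 0.0490, adjusted p = 3.06e-12) and 8.95-fold (3.13, SE 0.0447, adjusted p = 1.35e-12). *Scd1* was already high on day 0, at 251.40 and 258.74 FPKM in *Mb1Cre* and at 217.06 and 230.49 in *Mct1f/fMb1Cre* cells. On day 3 it was at 247.05 and 251.04 FPKM in *Mb1Cre* cells, a log2 difference of -0.03 (adjusted p = 0.522) that depended on the scaling. It was 0.18 (adjusted p = 0.00997) with median of ratios, -0.24 (adjusted p = 0.00077) with the same total and -0.20 (adjusted p = 0.01) with quantile scaling. In *Mct1f/fMb1Cre* cells it was at 292.59, 278.55 and 299.77 FPKM, a log2 difference of 0.37 (95% interval 0.28 to 0.47, adjusted p = 1.04e-05), which is under the limit as deposited and above it, at 0.59, with median of ratios scaling. *Scd1* exceeded *Scd2* by 6.20 to 8.30 times on day 0, and stood at 0.948 to 0.992 of it on day 3. The interaction of *Scd1* was 0.41 (95% interval 0.26 to 0.55, adjusted p = 0.00516), past the adjusted p and under the limit, and that of *Scd2* was 0.14 (adjusted p = 0.211).

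The pair share much of their sequence, which bears on how reads could be split between them. *Scd2* spans chr19:44293674-44306864 on the plus strand and *Scd1* chr19:44394455-44407879 on the minus strand, 87.6 kb apart (GRCm38), with *Scd4* between them. Their coding sequences, of 1065 and 1074 bases, were identical at 90.3% of the aligned bases, and 21.9% of the 50-base stretches of *Scd1* and 20.0% of those of *Scd2* occur in another gene. The stretches below are the codons around the second histidine box, one of the parts of the active site that hold iron (codons 145 to 164 of *Scd1*, chr19:44401836-44401895, and 148 to 167 of *Scd2*, chr19:44299612-44299671), with the bases that differ in capitals.
Scd1: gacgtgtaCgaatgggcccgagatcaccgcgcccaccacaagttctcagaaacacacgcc
Scd2: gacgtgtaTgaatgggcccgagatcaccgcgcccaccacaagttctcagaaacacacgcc
The next pair are the 60 aligned bases that differ most, near the N-terminus (chr19:44406647-44406706 in *Scd1* and chr19:44294967-44295026 in *Scd2*).
Scd1: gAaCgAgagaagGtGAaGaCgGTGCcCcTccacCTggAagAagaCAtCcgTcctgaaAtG
Scd2: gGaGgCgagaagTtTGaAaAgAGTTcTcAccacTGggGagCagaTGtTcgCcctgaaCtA
The active site stretch differed at 1 of 60 bases and the N-terminal stretch at 24, and the pair shared 145 of the 50-base stretches of their coding sequences. How reads from shared stretches were assigned is not given in the sources used here. From day 0 to day 3 in *Mb1Cre* cells the ratio of the means was 8.12 for *Scd2* and 0.976 for *Scd1*, so the values of the pair did not move together. *Scd3* and *Scd4*, the other genes of the cluster, were at 0.16 to 0.46 and 0.18 to 1.27 FPKM.

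Between the genotypes, the differences of the pathway were small and went both ways. On day 3 none of the 9 genes was called by limma, where 0.887% of all genes were called higher and 1.53% lower. At an unadjusted p under 0.05 there were 6 of 9, against 29.0% of all genes. Without the limit on the log2 difference, *Fasn* (0.38, adjusted p = 0.000964), *Scd2* (0.22, adjusted p = 0.0075) and *Scd1* (0.22, adjusted p = 0.00796) were higher and *Elovl6* (-0.42) was lower in *Mct1f/fMb1Cre* cells, where 6.03% of all genes passed higher and 9.21% lower. As ratios of the means these were 1.30 for *Fasn*, 1.17 for *Scd2*, 1.17 for *Scd1* and 0.702 for *Elovl6*. The libraries of the genotypes did not overlap on day 3 for 8 of the 9 genes, 4 of them higher (*Acaca*, *Fasn*, *Scd1*, *Scd2*) and 4 lower (*Elovl5*, *Elovl6*, *Fads1*, *Fads2*) in *Mct1f/fMb1Cre* cells, and 47.1% of all genes tested did not overlap. Of these 8, *Acaca*, *Elovl5*, *Fads1* and *Fads2* did not pass the adjusted p. The median over the 9 genes was 0.02, against -0.01 over all genes. In the same 5 libraries the myeloid marker *Lyz2* was at 10.04 and 11.48 FPKM in *Mb1Cre* and at 16.78 to 20.36 in *Mct1f/fMb1Cre* cells, and 4 of the 9 myeloid markers were higher and 1 lower in every *Mct1f/fMb1Cre* library. The summed level of the myeloid list was 96.0 to 102 FPKM in *Mb1Cre* and 63.5 to 65.9 in *Mct1f/fMb1Cre* cells, most of it from *Ly6c2* (85.62 and 81.00 against 39.86 to 41.26 FPKM). Without *Ly6c2* the order turned, with 15.0 to 16.8 FPKM in *Mb1Cre* and 22.2 to 25.5 in *Mct1f/fMb1Cre* cells. The 5 plasma cell markers summed to 457 to 473 FPKM in *Mb1Cre* and to 379 to 408 in *Mct1f/fMb1Cre* cells. *Xbp1* gave the largest part (255.87 and 252.43 against 230.32 to 241.15 FPKM). In every *Mct1f/fMb1Cre* library 3 of these markers were lower (*Xbp1*, *Jchain* and *Irf4*) and 2 higher (*Prdm1* and *Sdc1*), so the list did not move as a whole. The part of both lists in these differences was not tested. Of the myeloid markers, *S100a9* and *S100a8* were at most 1.91 and 1.02 FPKM on day 3, and *Mpo* and *Ly6g* at most 0.18 and 0.06.

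On day 0 none of the 9 genes was called by limma between the genotypes, and none passed the adjusted p. At an unadjusted p under 0.05, which 11.7% of all genes reached, there were 2, *Scd1* (-0.19, 95% interval -0.30 to -0.08, adjusted p = 0.204) and *Fasn* (-0.15, 95% interval -0.28 to -0.02, adjusted p = 0.353). Over all genes, 0.240% were called higher and 0.0370% lower, or 0.351% and 0.0647% without the limit. The values of *Scd1* and *Fasn* lay below the control on day 0, where neither difference passed the adjusted p. They lay above it on day 3, where both passed without the limit. Without the limit these 2 genes also passed in the interaction, where 3.82% of all genes passed higher and 5.61% lower. The *Mct1f/fMb1Cre* libraries of day 0 included the one with the highest myeloid levels (*S100a9* at 513.53 FPKM, against 165.74 to 231.87 in the other 3), and *Scd1* was at 217.06 FPKM in that library and at 230.49 in its partner. The library with the high *S100a9* was also the only one of day 0 with *Ddx3y* above 0.24 FPKM. The plasma cell markers of day 0 summed to 185 to 197 FPKM in *Mb1Cre* and to 239 to 282 in *Mct1f/fMb1Cre* cells. *Jchain* (62.27 and 77.86 against 159.94 and 117.29 FPKM) and *Xbp1* (61.47 and 64.42 against 66.21 and 65.56) were higher there. For *Sdc1*, *Prdm1* and *Irf4* the genotypes overlapped. The part of these markers was not tested.

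**Figure D3:**
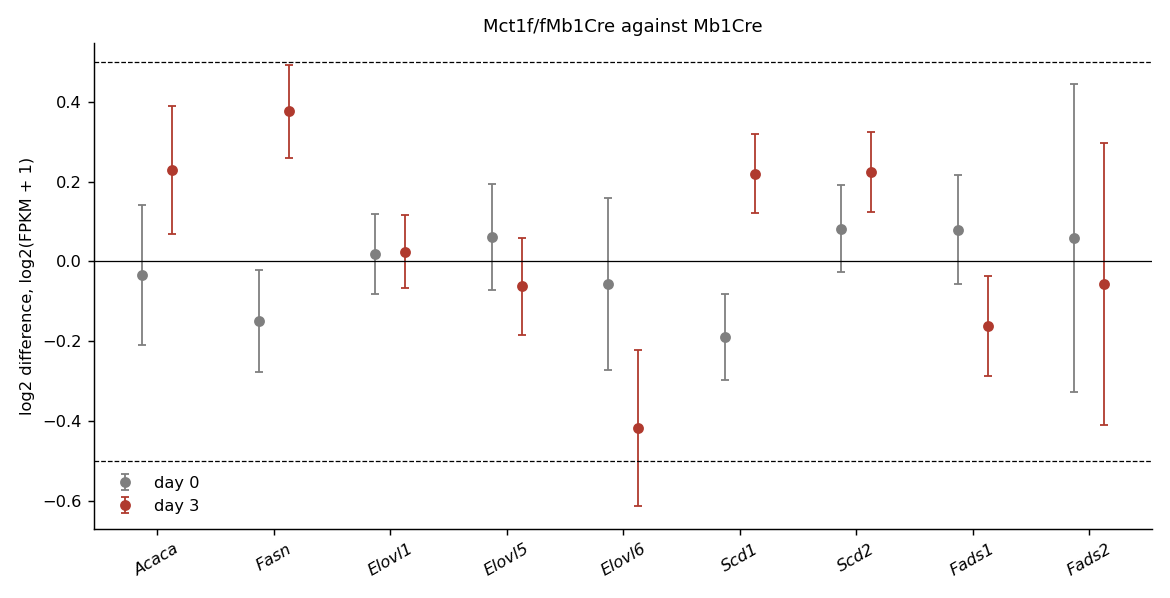
Log2 difference between *Mct1f/fMb1Cre* and *Mb1Cre* cells on day 0 and on day 3 for the 9 tested genes, with 95% intervals; the dashed lines mark the limit of 0.5. On day 3 *Fasn* lies at 0.38 and *Elovl6* at -0.42, and every point lies inside the limit.

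The steps that feed the pathway with acetyl-CoA and NADPH moved in part. Of 8 genes 7 were tested, and 3 rose and 2 fell in both genotypes. Among all genes 24.8% rose and 33.0% fell in *Mb1Cre* cells, and 23.4% and 33.2% in *Mct1f/fMb1Cre* cells. *Slc25a1*, the mitochondrial citrate carrier, was at 18.85 to 20.33 FPKM on day 0 and at 72.91 to 82.45 on day 3 (log2 differences 1.83 and 2.02). *Acly*, ATP citrate lyase, was at 52.78 to 58.90 and at 93.13 to 107.53 FPKM (0.72 and 0.95). Its interaction of 0.23 passed the adjusted p (0.0467) but not the limit, and its genotype difference on day 3 was 0.13 (adjusted p = 0.0769). *Acss1*, which makes acetyl-CoA from acetate in mitochondria, fell from 40.06 to 41.47 FPKM on day 0 to 3.98 to 4.53 on day 3 (-2.95 and -3.03). *Idh1*, a cytosolic source of NADPH, was at 9.67 to 12.80 and at 6.42 to 7.55 FPKM (-0.61 and -0.59), a call that was lost with median of ratios scaling (-0.42 and -0.39) and without replicate 1 of day 0 of the same genotype (-0.50 and -0.44). The malic enzyme *Me1* was at most 0.36 FPKM. *Pgd*, a further source of NADPH and the third gene that rose, was at 53.98 to 56.85 FPKM on day 0 and at 92.31 to 99.60 on day 3. *G6pdx*, of the same pentose phosphate pathway, was at 33.07 to 37.35 and at 33.24 to 35.16 FPKM and was not called.

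Of the 13 genes of SREBP, ChREBP and LXR control 11 were tested. *Insig1*, an SREBP target that holds SREBP back in the endoplasmic reticulum, rose from 11.58 to 14.73 FPKM on day 0 to 86.15 to 89.72 on day 3 (log2 differences 2.63 and 2.82). *Srebf1* (0.77 and 1.00) and *Srebf2* (0.58 and 0.77), which encode the SREBP factors themselves, also rose, with *Srebf2* in *Mb1Cre* cells under the limit when scaled to the same total (0.38). *Scap*, the sterol sensor that escorts SREBP, was at 22.86 to 24.98 FPKM on day 0 and 28.61 to 31.04 on day 3, with differences of 0.29 and 0.33 under the limit. *Nr1h3* and *Nr1h2*, the liver X receptors, fell by 2.81 and 1.29 on the log2 scale in *Mb1Cre* cells and by 2.85 and 1.15 in *Mct1f/fMb1Cre* cells. *Nr1h3* is also expressed in macrophages, and it went from 7.50 to 9.38 FPKM to at most 0.56, as the myeloid markers did, whose part in this was not tested. *Mlxipl*, which encodes ChREBP, was at most 0.10 FPKM. In all 4 genes rose in both genotypes (the fourth was *Mid1ip1*), and 3 fell in *Mb1Cre* and 2 in *Mct1f/fMb1Cre* cells. The shares over all genes were 24.8% and 23.4% for a rise and 33.0% and 33.2% for a fall, in the same order of genotypes. None of the 11 tested genes of the list was called between the genotypes on either day or in the interaction, and 2 on day 3 had an unadjusted p under 0.05, against 29.0% of all genes. Without the limit on the log2 difference 1 passed the adjusted p there, as lower, against 9.21% of all genes.

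The elongation cycle and the desaturases need further enzymes and electron carriers. Of 11 such genes tested, 7 rose and 2 fell in *Mb1Cre* cells, against 24.8% and 33.0% of all genes. In *Mct1f/fMb1Cre* cells 4 rose and 2 fell, against 23.4% and 33.2%. *Hsd17b12* and *Tecr*, the ketoacyl and enoyl reductases of the cycle, rose in both genotypes (0.98 and 1.02 for *Hsd17b12*, 0.89 and 0.83 for *Tecr*). *Cyb5b*, a cytochrome b5, rose by 1.13 and 1.26, and *Cyb5a*, the form that passes electrons to desaturases, was lower by 0.50 and 0.51 in size, a call at the limit that did not stand with median of ratios scaling (-0.29 and -0.30). It also fell under the limit, at -0.49, without *Mb1Cre* replicate 2 of either day in *Mb1Cre* cells, and without *Mct1f/fMb1Cre* replicate 1 of day 0 or 3 of day 3 in *Mct1f/fMb1Cre* cells. *Hacd4* fell by 2.07 and 2.39 on the log2 scale. Between the genotypes on day 3, 6 of the 11 genes had an unadjusted p under 0.05, against 29.0% of all genes. Without the limit on the log2 difference 4 passed the adjusted p there, all as lower, against 9.21% of all genes. The dehydratase *Hacd1* was the one gene of the list called between the genotypes, where 0.887% of all genes were called higher and 1.53% lower on day 3. It was at 2.82 and 3.37 FPKM in *Mb1Cre* and at 1.32, 1.43 and 1.55 in *Mct1f/fMb1Cre* cells on day 3, a log2 difference of -0.75 (adjusted p = 0.0017), and at 1.10 to 1.71 FPKM on day 0. Its rise, called in *Mb1Cre* cells (0.78), was 0.07 in *Mct1f/fMb1Cre* cells, and the interaction was -0.71 (adjusted p = 0.0291). That interaction kept its sign but lost the adjusted p when any of 8 of the 9 libraries was left out (adjusted p = 0.0511 to 0.113), without the filter on low values (0.0798) and with the replicate number as a block (0.0769). *Cyb5r3*, the reductase that supplies electrons to cytochrome b5, named after its values were seen, was at 94.59 and 94.82 FPKM in *Mb1Cre* and at 75.58, 72.07 and 70.37 in *Mct1f/fMb1Cre* cells on day 3. Its log2 difference of -0.38 (adjusted p = 0.000205) passed the adjusted p and not the limit. *Elovl2*, *Elovl3* and *Elovl4* were at most 0.12 FPKM, and *Elovl7* at most 0.36, so *Elovl1*, *Elovl5* and *Elovl6* were the elongases with a level above 1 FPKM.

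**Figure D4:**
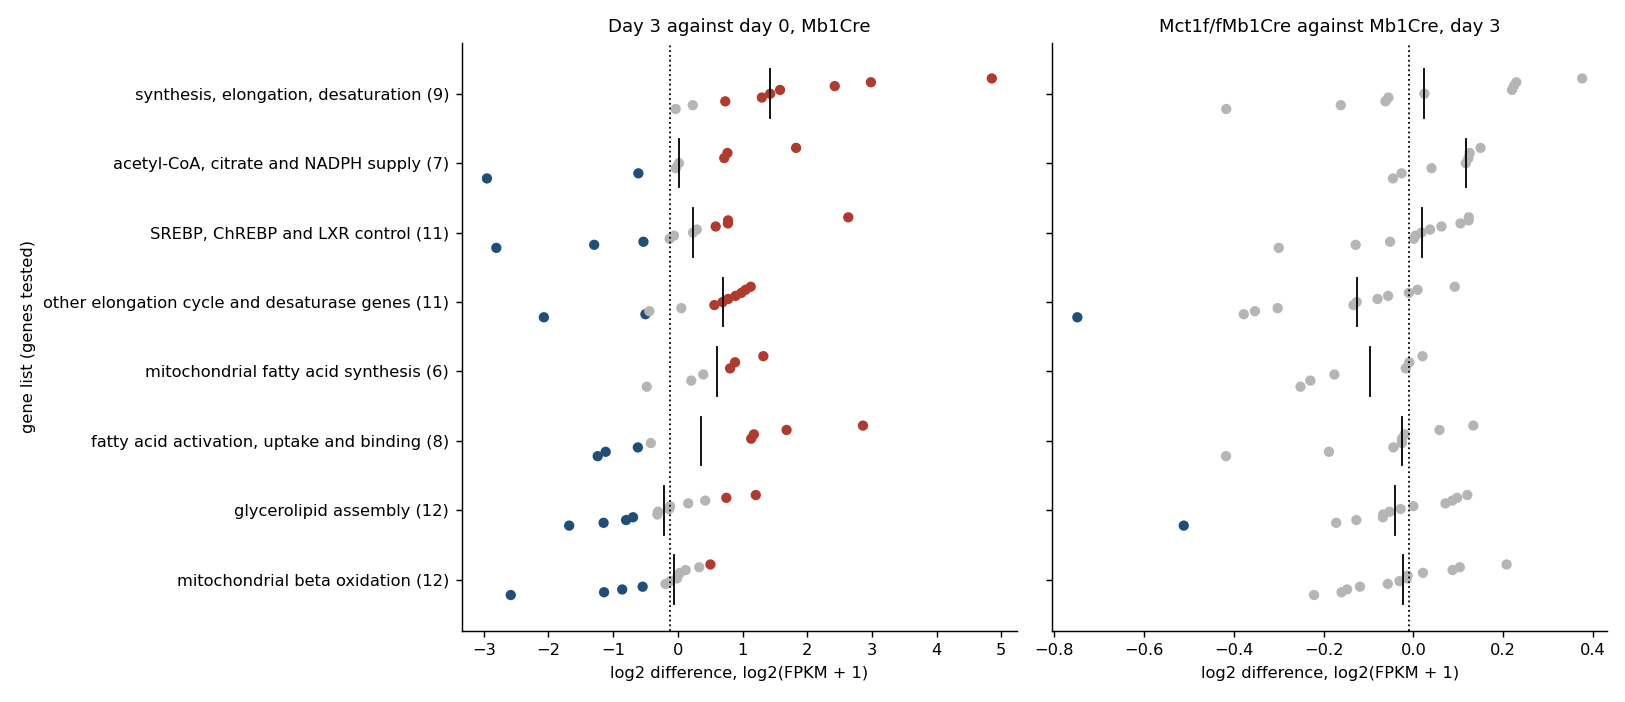
Log2 differences of the tested genes by list, for day 3 against day 0 in *Mb1Cre* cells (left) and for *Mct1f/fMb1Cre* against *Mb1Cre* cells on day 3 (right); red points were called higher, blue points lower, grey points not called, black bars are list medians and dotted lines the medians over all genes. Left, 7 of the 9 genes of synthesis, elongation and desaturation are red; right, *Hacd1* at -0.75 and *Agpat4* at -0.51 are the called genes.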

How the data were processed

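RNA of splenic B cells was sequenced in 9 libraries. The labels name TRNzol reagent for extraction and the study's methods a column kit. The authors deposited FPKM values, 1 per gene and library, normalized to transcript length and mapped fragments and rounded to 2 decimals. The submitters' processing notes name Bowtie2 and the builds GRCm38 and mm10, and the counting tool is not given in the sources used here. FPKM hold no counts, so depth is unknown and precision rests on 2 or 3 libraries per group.

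Genes averaging 1 FPKM or more over the libraries were tested as log2(FPKM + 1) with limma 3.58.1 (R 4.3.3), with a mean for each group, a variance trend and Benjamini-Hochberg adjustment over 10823 genes. The procedure was tested on simulated data. Alternatives were pseudocounts of 0.1 and 5, no filter or a mean of 5 FPKM, scaling to the same total, by median of ratios or by quantiles, only the compared groups, a replicate block, no trend, no limit on the log2 difference or one of 1, and leaving out single libraries. Positions and transcripts came from GENCODE vM21 (GRCm38), promoters from RefSeq (GRCm38.p6), and alignment used Biopython 1.88. Sequences of *Scd1*, *Scd2* and *Fads1* promoters were not used here.

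The members and gene lists were chosen with earlier results of these data known. Named were the 10 genes, *Slc16a1*, every listed gene called between the genotypes or in the interaction, the 2 largest rises and falls of each list among genes called in both genotypes, and 9 genes by role (*Acly*, *Srebf1*, *Srebf2*, *Insig1*, *Scap*, *Mlxipl*, *Hsd17b12*, *Tecr*, *Cpt1a*). Some others, among them *Cyb5r3*, *Pgd*, *G6pdx*, *Oxsm* and *Dgat1*, were named after their values were seen.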

Additional observations from a re-analysis of the deposited data

Results flagged for a closer look

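No group held 4 or more libraries, so no library was tested as an outlier. The genotype by day interaction tests whether the change from day 0 to day 3 differed between the genotypes. It had an adjusted p under 0.05 in limma for 7 of the genes named. Over all genes, 3.82% passed higher and 5.61% lower. *Hacd1* and *Agpat4* were named because they were called, and *Cyb5r3* after its values were seen, so the count of 7 is not a rate to set against these shares. The log2 difference between day 3 and day 0 was higher in *Mct1f/fMb1Cre* than in *Mb1Cre* cells for *Fasn* (by 0.53), *Scd1* (0.41) and *Acly* (0.23), with *Scd1* and *Acly* under the limit of 0.5. It was lower in *Mct1f/fMb1Cre* cells for the targeted gene *Slc16a1* (-1.06), *Hacd1* (-0.71), *Agpat4* (-0.57) and *Cyb5r3* (-0.32), the last under the limit.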

How the results depend on the processing

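The 7 calls with activation in each genotype held without any single library and under every other alternative run, with these exceptions. *Elovl1* was lost with a limit of 1, *Elovl6* in *Mct1f/fMb1Cre* cells was at 0.48 with a pseudocount of 5, and *Elovl6* was not tested at a mean of at least 5 FPKM. *Scd1* in *Mct1f/fMb1Cre* cells was added by median of ratios (0.59) and by no limit, as was *Elovl5* in *Mb1Cre* cells by no limit. Scaling turned the sign of *Scd1* in *Mb1Cre* cells (0.18 with median of ratios) and of *Elovl5* in *Mct1f/fMb1Cre* cells (-0.067 with the same total). Between the genotypes on day 3, no limit gave 3 of the 9 genes higher and 1 lower, and a pseudocount of 0.1 gave 1 lower (*Elovl6*, -0.50). In the interaction the 1 gene called, *Fasn*, became 0 with a pseudocount of 5, with a limit of 1 and with the replicate number as a block (0.48), and 2 genes passed with no limit. Leaving out single libraries gave 0 to 1. The cause of these changes was not tested. The Y-linked *Ddx3y* was at 0.24 and 0.02 FPKM in the *Mb1Cre* libraries of day 0 and at 14.69 and 16.53 on day 3. Same-numbered *Mb1Cre* libraries thus did not come from the same mice alone. Same-numbered libraries of the days had deviations from the group means correlated across genes at -0.122 in *Mb1Cre* and at 0.0533 and 0.0642 in *Mct1f/fMb1Cre* cells. In a group of 2 libraries the deviations mirror each other, so these correlations cannot decide whether the numbers pair the libraries. A block with the *Mb1Cre* numbers crossed, chosen after seeing the data, also gave 0. The block changed no count of the 9 genes in the other comparisons, and among the other named genes it took *Hacd1* in the interaction (adjusted p = 0.0769, or 0.0604 crossed) and *Cyb5a* in *Mct1f/fMb1Cre* cells (-0.49) from the calls. With a pseudocount of 5, *Hacd1* (-0.33 by genotype on day 3, -0.31 in the interaction), *Agpat4* (-0.36 and -0.40), *Idh1* and *Cyb5a* in both genotypes and *Gpat4* in *Mct1f/fMb1Cre* cells (0.49) fell under the limit. So did *Idh1* (-0.41 and -0.37) and *Srebf2* in *Mb1Cre* cells (0.42) with quantile scaling and *Gpat4* in *Mct1f/fMb1Cre* cells (0.41) with the same total, while *Scap* there passed it (0.54) with median of ratios.

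Leaving out single libraries turned the sign of small genotype differences on day 0, with ranges of -0.14 to 0.068 for *Acaca*, -0.020 to 0.057 for *Elovl1*, -0.021 to 0.14 for *Elovl5*, -0.13 to 0.022 for *Elovl6*, -0.27 to 0.38 for *Fads2* and -0.13 to 0.024 for *Slc16a1*. In the interaction the ranges were -0.033 to 0.045 for *Elovl1* and -0.44 to 0.21 for *Fads2*, whose day 0 values are low.

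Over all genes, the limit of 1 called 1324 higher and 1867 lower with activation in *Mb1Cre* cells (2687 and 3571 with 0.5) and 1200 and 1794 in *Mct1f/fMb1Cre* cells (2532 and 3588), where 3941 were higher with no limit. On day 3 the 96 genes higher and 166 lower by genotype became 44 and 76 with a pseudocount of 5 and 27 and 27 with the limit of 1, with 176 higher at a pseudocount of 0.1 and 104 lower at a mean of at least 5 FPKM. The interaction's 110 and 240 became 43 and 113, and 16 and 40, with 157 lower at a mean of at least 5 FPKM. On day 0 the 26 genes higher and 4 lower became 11 and 2 without the filter, 0 and 2 with only the compared groups, 14 and 2 with the limit of 1, 57 and 44 without *Mb1Cre* replicate 2 and 56 and 11 without *Mct1f/fMb1Cre* replicate 2. With no limit the genotype counts were 653 and 997 on day 3 and 413 and 607 in the interaction, with 7 lower on day 0. There 17 were higher without the trend, 15 with the crossed block, and 1 was lower at a mean of at least 5 FPKM. Read depth is unknown, so it sets no stated limit on genes such as *Acacb*.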

Other observations

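Genes that use fatty acids were read in the same way. Of 8 tested genes of fatty acid activation, uptake and binding, 4 rose and 3 fell in both genotypes. Among all genes 24.8% rose and 33.0% fell in *Mb1Cre* cells, and 23.4% and 33.2% in *Mct1f/fMb1Cre* cells. *Fabp5*, a fatty acid binding protein of lymphocytes and epidermis, went from 5.95 to 8.60 FPKM on day 0 to 60.37 and 56.36 in *Mb1Cre* and 43.36, 42.61 and 44.32 in *Mct1f/fMb1Cre* cells on day 3 (log2 differences 2.86 and 2.60). *Acsl3*, an acyl-CoA synthetase, rose by 1.68 and 1.75, and the transport proteins *Slc27a1* (-1.24 and -0.98) and *Slc27a4* (-1.12 and -0.92) fell. Of 12 tested genes of glycerolipid assembly, 2 rose and 4 fell in *Mb1Cre* cells, against 24.8% and 33.0% of all genes. In *Mct1f/fMb1Cre* cells 2 rose and 3 fell, against 23.4% and 33.2%. *Gpat4* (0.75 and 0.58) and *Agpat5* (1.20 and 1.14) rose in both genotypes. *Gpat3* (-1.68 and -1.71) and *Lpin2* (-1.15 and -0.96) fell in both, as did *Dgat1*. *Agpat4*, a lysophosphatidic acid acyltransferase, was at 10.83 and 9.85 FPKM in *Mb1Cre* and at 6.65, 6.80 and 7.41 in *Mct1f/fMb1Cre* cells on day 3, a log2 difference of -0.51 (adjusted p = 0.000457), against 8.96 to 9.70 FPKM on day 0. That value fell under the limit without *Mb1Cre* replicate 1 (-0.45), *Mct1f/fMb1Cre* replicate 1 (-0.48) or replicate 2 (-0.50) of day 3, under each other scaling (-0.48 to -0.50) and with a pseudocount of 5 (-0.36).

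Mitochondrial fatty acid synthesis, a separate pathway that makes the lipoic acid precursor, had 6 tested genes. In *Mb1Cre* cells 3 rose and none fell, against 24.8% and 33.0% of all genes. In *Mct1f/fMb1Cre* cells 2 rose and 1 fell (*Oxsm*), against 23.4% and 33.2%. *Ndufab1* (1.32 and 1.39), the acyl carrier protein of the pathway, and *Mecr* (0.81 and 0.77), its reductase, rose in both genotypes. In mitochondrial beta oxidation *Cpt1a*, the entry step that malonyl-CoA inhibits, was at 29.04 to 33.46 FPKM on day 0 and at 3.88 to 4.25 on day 3 (-2.58 and -2.71), and *Mlycd*, which degrades malonyl-CoA, fell too (-1.14 and -1.03). Of the 12 tested genes of that list 1 rose and 4 fell in *Mb1Cre* cells, where 24.8% of all genes rose and 33.0% fell. In *Mct1f/fMb1Cre* cells none rose and 2 fell, against 23.4% and 33.2% of all genes. The falls of the list were thus not more frequent than over all genes. None of the 12 genes was called between the genotypes on day 3, where 4 had an unadjusted p under 0.05, against 29.0% of all genes. Without the limit on the log2 difference 1 passed the adjusted p higher and 3 lower, against 6.03% and 9.21% of all genes.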
